A study of Mus musculus with 6 samples.

Results

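Chemokines and their receptors were read in bone marrow-derived macrophages (BMMs) that were differentiating into osteoclasts with or without recombinant GDF11 (rGDF11). The genes were taken by symbol, as every Ccl, Cxcl, Ccr, Cxcr or Ackr gene with a number together with Cx3cl1, Cx3cr1, Xcl1, Xcr1, Ccrl2, Pf4 and Ppbp, where a probe set was paired with that symbol only, and the brightest probe set stood for each gene. This gave 58 genes, 36 ligands and 22 receptors, of the 19938 that have their own probe set. The rule itself uses symbols and brightness and no measured change, though it was written with earlier results of these data known. Of 6 samples, 3 had received 100 ng/ml rGDF11 beside 50 ng/ml RANKL and 100 ng/ml M-CSF over 24 h (rGDF11 BMMs), and 3 the same RANKL and M-CSF with vehicle (vehicle BMMs). M-CSF, RANKL and the 24 h of culture are thus shared by both groups. The labels call the 3 samples of each group biological replicates and say that marrow came from tibiae of 9-week-old mice. The paper's animals were female C57BL mice, and no genetic change is given for either group. The sources used here do not say that each replicate had its own mouse, and the p-values therefore reflect only how far these samples spread, which may be technical.

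Chemokines are small secreted proteins that guide leukocytes along a gradient, and CX3CL1 and CXCL16 are also made as membrane-anchored forms. They bind receptors that cross the membrane repeatedly and signal through inhibitory G proteins, while atypical receptors bind or clear chemokines without that signal. Osteoclast precursors of the monocyte lineage are drawn to bone by such cues, and macrophages and osteoclasts are themselves sources of several CC chemokines.

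The arrays were Affymetrix Mouse Gene 1.0 ST, and the deposited values are log2 values from the robust multichip average (RMA), 1 per probe set. Array medians were 6.11 to 6.18, and the correlation across probe sets, which are not independent, was 0.997 to 0.998 within groups and 0.989 to 0.991 between them. RMA gives no value of 0 and no detection call, and a level is not compared between probe sets. Where a summed linear level of a list is given, its brightest probe sets weigh most in it. All 10 macrophage markers and 8 of 10 osteoclast markers lay above the median level of the tested probe sets (6.15), as did 5 of 10 neutrophil, 3 of 8 stromal, 2 of 4 megakaryocyte, 1 of 6 T cell and 1 of 5 B cell markers. None of the NK cell, dendritic cell, mast cell or endothelial markers (6 of each) or of the 3 erythroid markers lay above it. With rGDF11, 6 osteoclast markers were higher and 1 was lower, and 5 macrophage markers were lower and 0 higher (limma, also 0 higher at an unadjusted p under 0.05). Above the median level 87.5% of the osteoclast and 50% of the macrophage markers had changed at an adjusted p under 0.05, beside 27.2% of all tested probe sets there. At any level 30% of neutrophil, 37.5% of stromal, 33.3% of T cell and 16.7% of dendritic cell markers had, beside 16.0% of all tested probe sets. In such mixed RNA, fewer cells of a type and less RNA per cell cannot be told apart.

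Ccl6, Cxcl10, Pf4, Ccl5 and Ccl9 fell the most with rGDF11, and Cxcl14, Cxcr2, Ccr1, Cx3cr1 and Cxcr4 rose the most. Of the 58 genes, 8 were higher (background 7.31% of 23410 tested probe sets) and 12 were lower (background 8.64%) at an adjusted p under 0.05 (limma, two-sided, Benjamini-Hochberg over all tested probe sets), and 38 did not pass the test. The 20 called genes were 34.5% of the set, beside 16.0% of all tested probe sets. The share differed with the level of the genes. Among the 19 genes above the median level 16 were called (84.2%, background 27.2%), and among the 39 at or below it 4 were called (10.3%, background 4.72%). These 4 were Cxcr2, Ccr1, Cx3cl1 and Ccl22, and all of them rose. All arrays of one group lay above all arrays of the other for 27 of the 58 genes, 14 with rGDF11 above and 13 with rGDF11 below, which is 46.6% beside 32.9% of all tested probe sets. At the fold change of 1.5 and unadjusted p under 0.01 that the methods set, 5 genes were higher (background 2.06%) and 7 were lower (background 2.96%). These shares describe the set and were not tested against other sets.

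Ligands and receptors were counted side by side. Of the 36 ligands 4 were higher and 9 lower, and of the 22 receptors 4 were higher and 3 lower. Called were thus 36.1% of the ligands and 31.8% of the receptors, beside 16.0% of all tested probe sets. Above the median level 11 of 14 ligands and 5 of 5 receptors were called (background 27.2%). At or below it the called were 2 of 22 ligands and 2 of 17 receptors (background 4.72%). More ligands than receptors were bright, so the counts of the classes are not alike. At the methods' threshold the ligands had 1 higher and 7 lower and the receptors 4 higher and 0 lower (limma; 3 receptors were lower at an unadjusted p under 0.05). The median log2 fold change was 0.02 over the ligands and 0.17 over the receptors, beside 0.02 over all tested probe sets. Over the rows above the median level only, the medians were −0.50 for 14 ligands and −0.44 for 5 receptors, so the sign of the receptor median turned. Most members of both classes lay at or below the median level, 22 of 36 ligands and 17 of 22 receptors, so the medians mainly describe dim probe sets. Whether ligands and receptors differ was not tested, since members of a gene set are not replicates.

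**Figure D1:**
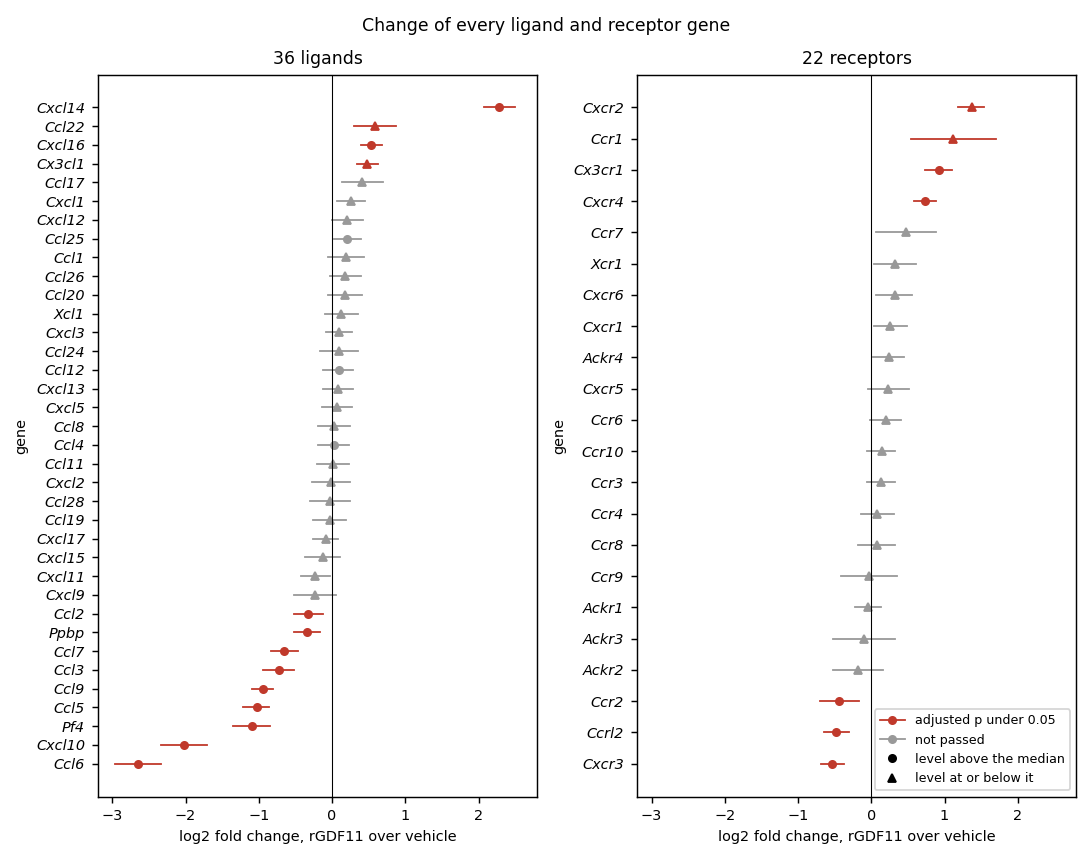
Log2 fold change (rGDF11 over vehicle BMMs, horizontal axis) of 36 ligand genes (left) and 22 receptor genes (right), with the 95% interval from limma as a line. Red marks an adjusted p under 0.05, circles a level above the median of all tested probe sets and triangles a level at or below it. The falls of Ccl6 and Cxcl10 and the rise of Cxcl14 lie furthest from 0.

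The inflammatory CC ligands, which recruit monocytes, T cells and eosinophils, were the largest group of ligands and held the most falls. Of 13 members 0 were higher, 6 were lower and 7 did not pass (limma; at an unadjusted p under 0.05 the count of higher members was also 0), with a median log2 fold change of 0.01. Of all tested probe sets 8.64% were lower. All 6 calls were among the 8 members above the median level (75%, background 27.2% called), and 0 of the 5 dimmer members were called. Their summed level on the linear scale was 6073 to 6630 in rGDF11 BMMs and 10831 to 11716 in vehicle BMMs. The bright probe sets of Ccl3 and Ccl9 made most of this sum, which therefore does not describe a typical member. Ccl6, a rodent CC chemokine made by macrophages and myeloid cells, had the largest fall. Its log2 values were 7.56, 7.55 and 7.11 in rGDF11 BMMs and 10.17, 10.10 and 9.89 in vehicle BMMs. The groups were 2.33 log2 units apart at their nearest arrays, and the third rGDF11 array and the third vehicle array were each the lowest of their group. Ccl6 was 6.26-fold lower with rGDF11 (log2 fold change −2.65, SE 0.13, limma adjusted p = 2.35e-05).

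Ccl5 (RANTES), a ligand of CCR1 that draws T cells and monocytes, had log2 values of 7.72, 7.77 and 7.87 in rGDF11 BMMs and 8.92, 8.74 and 8.78 in vehicle BMMs, without overlap. It was 2.04-fold lower with rGDF11 (log2 fold change −1.03, SE 0.07, limma adjusted p = 9.09e-05). Ccl9, another rodent CC chemokine, which is known as a product of osteoclasts and a ligand of CCR1, had 10.81, 10.86 and 10.93 in rGDF11 BMMs and 11.84, 11.80 and 11.80 in vehicle BMMs. The groups were tight and separate, and Ccl9 was 1.93-fold lower with rGDF11 (log2 fold change −0.95, SE 0.06, limma adjusted p = 5.69e-05). Ccl3 (MIP-1α), which also acts through CCR1, averaged 11.18 ± 0.15 in rGDF11 BMMs and 11.92 ± 0.10 in vehicle BMMs (SD, n = 3 arrays each), a 1.66-fold fall (limma adjusted p = 0.00145). Ccl4 (MIP-1β), its close relative, averaged 6.38 ± 0.04 in rGDF11 BMMs and 6.36 ± 0.16 in vehicle BMMs (SD, n = 3 arrays each) and did not pass (log2 fold change 0.02, limma adjusted p = 0.917). The sign for Ccl4 turned when an array was left out, to −0.0043 without rGDF11 replicate 1 and to −0.07 without vehicle replicate 2.

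Of the monocyte chemoattractants that bind CCR2, Ccl7 and Ccl2 fell and Ccl12 did not pass. Ccl7 (MCP-3) averaged 8.54 ± 0.13 in rGDF11 BMMs and 9.19 ± 0.07 in vehicle BMMs, a 1.57-fold fall (limma adjusted p = 0.00144). Ccl2 (MCP-1) averaged 10.05 ± 0.10 in rGDF11 BMMs and 10.37 ± 0.12 in vehicle BMMs (SD, n = 3 arrays each), a 1.25-fold fall (limma adjusted p = 0.0374). The call for Ccl2 was lost without rGDF11 replicate 1, 2 or 3 (adjusted p = 0.0724, 0.0624 and 0.113), without vehicle replicate 1 or 2 (0.101 and 0.0895), with a repeated quantile normalization (0.0540), with all rows of the table tested (0.0812) and with the methods' t-test (0.111), at log2 fold changes of −0.38 to −0.26 over all alternatives. Ccl12 (MCP-5), the mouse relative, averaged 6.53 ± 0.17 in rGDF11 BMMs and 6.44 ± 0.01 in vehicle BMMs and did not pass (log2 fold change 0.09, limma adjusted p = 0.608). Ccl2, Ccl7 and Ccl12 are similar in sequence, as are Ccl6 and Ccl9, and a probe set can bind transcripts of a close relative.

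No promoter motif searched here was found in the window of Ccl6. The RefSeq promoter table (GRCm38.p6, 250 bases before to 50 bases after each start) held 44 of the 58 genes, 16 of them called. The bases before the start of Ccl6 (chr11:83593088-83593337, minus strand) are shown because this ligand had the largest change, and lower case marks that no motif letters matched.
Ccl6: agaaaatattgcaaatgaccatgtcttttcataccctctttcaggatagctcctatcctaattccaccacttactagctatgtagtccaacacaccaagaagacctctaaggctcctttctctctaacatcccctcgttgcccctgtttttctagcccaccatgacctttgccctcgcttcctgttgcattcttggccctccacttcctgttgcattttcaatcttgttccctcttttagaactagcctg

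Cxcl10 (IP-10), an interferon-inducible ligand that attracts activated T cells and NK cells through CXCR3, had the second largest fall. Its log2 values were 8.14, 7.57 and 7.86 in rGDF11 BMMs and 9.89, 9.78 and 9.97 in vehicle BMMs. The highest rGDF11 array lay 1.64 log2 units below the lowest vehicle array. Cxcl10 was 4.06-fold lower with rGDF11 (log2 fold change −2.02, SE 0.14, limma adjusted p = 6.45e-05). The other interferon-inducible CXCR3 ligands, Cxcl9 and Cxcl11, did not pass. Cxcl9 (MIG) had 4.87, 5.34 and 5.22 in rGDF11 BMMs and 5.49, 5.32 and 5.33 in vehicle BMMs, with overlap, and changed by −0.23 on the log2 scale (limma adjusted p = 0.272). Cxcl11 (I-TAC) had 5.04, 4.94 and 5.20 in rGDF11 BMMs and 5.37, 5.28 and 5.21 in vehicle BMMs. Its groups were only 0.01 apart, with a mean difference of −0.23 (limma adjusted p = 0.129). Both lie below the median level, where 4.72% of all tested probe sets were called.

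Cxcl10 and Cxcl9 are neighbours on chromosome 5, and their promoter windows hold the same kinds of motif. The motifs searched, on both strands, were the interferon-stimulated response element core GAAANNGAA, an NF-kB site GGGANNTNC, an AP-1 site TGANTCA and the palindromic Smad box GTCTAGAC. They occur in 8.56%, 15.1%, 7.81% and 0.213% of the 32851 promoters of the table, in that order. The bases before the start are shown for Cxcl10 (chr5:92348890-92349139, minus strand) and Cxcl9 (chr5:92328080-92328329, minus strand), with motif matches in capitals.
Cxcl10: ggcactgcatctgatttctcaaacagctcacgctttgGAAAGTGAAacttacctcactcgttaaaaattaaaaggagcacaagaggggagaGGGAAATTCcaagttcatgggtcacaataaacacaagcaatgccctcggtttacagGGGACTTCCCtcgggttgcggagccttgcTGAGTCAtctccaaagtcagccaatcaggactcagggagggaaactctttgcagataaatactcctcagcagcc
Cxcl9: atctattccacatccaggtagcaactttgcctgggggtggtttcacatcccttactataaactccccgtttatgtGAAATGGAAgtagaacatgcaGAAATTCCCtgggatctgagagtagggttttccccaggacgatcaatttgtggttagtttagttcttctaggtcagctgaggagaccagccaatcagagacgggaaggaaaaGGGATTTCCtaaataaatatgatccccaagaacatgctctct
In Cxcl10 the capitals run, 5′ to 3′, over the interferon core 213 bases before the start, an NF-kB match at 159, overlapping NF-kB matches on the opposite strands at 103 and 102, and an AP-1 match at 74. In Cxcl9 they mark the interferon core at 175 and NF-kB matches at 154 and 42 bases before the start, and an AP-1 match lies after its start, outside the stretch shown. A match is a description of these letters and not a bound site.

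Over the 44 genes with a promoter in the table, the interferon core was found in 1 of 7 higher, 3 of 9 lower and 4 of 28 genes that did not pass. The NF-kB letters were found in 3 of 7 higher, 1 of 9 lower and 8 of 28 genes that did not pass, and the AP-1 letters in 0 of 7, 3 of 9 and 4 of 28. The Smad box, the palindrome bound by Smad proteins downstream of the TGF-β family to which GDF11 belongs, was in 0 of the 44 windows. With these letters in only 0.213% of all promoters of the table, a count of 0 was likely beforehand. No other Smad motif was searched, so this count cannot say whether Smad proteins bind these genes. The lower genes with the interferon core were Cxcl10, Ccl3 and Ccr2, and those with the AP-1 letters were Cxcl10, Ccl9 and Ppbp.

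The platelet-type CXC ligands also fell. Pf4 (platelet factor 4, CXCL4), which is best known from platelet granules, had log2 values of 8.48, 8.52 and 8.17 in rGDF11 BMMs and 9.50, 9.59 and 9.38 in vehicle BMMs. The groups were clearly separate, and Pf4 was 2.15-fold lower with rGDF11 (log2 fold change −1.10, SE 0.11, limma adjusted p = 3.73e-04). Ppbp, the precursor of the neutrophil attractant CXCL7, averaged 7.71 ± 0.12 in rGDF11 BMMs and 8.06 ± 0.04 in vehicle BMMs (SD, n = 3 arrays each), a 1.27-fold fall (limma adjusted p = 0.0199). The call for Ppbp was lost without rGDF11 replicate 1 or 3 (adjusted p = 0.0710 and 0.0595), without vehicle replicate 1 or 3 (0.0634 and 0.0617) and with the methods' t-test (0.0633), and over all alternatives its adjusted p was 0.00467 to 0.0710. Of 4 measured megakaryocyte and platelet markers 0 were higher and 0 were lower (limma; also 0 and 0 at an unadjusted p under 0.05), and their summed linear level was 242 to 268 in rGDF11 BMMs and 242 to 274 in vehicle BMMs. These 4 lay at mean levels of 5.24 to 6.27, near or below the median level of 6.15, where a fall is hard to see. Their part in the falls of Pf4 and Ppbp was not tested.

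The ELR-type CXC ligands that attract neutrophils through CXCR2 did not pass, apart from Ppbp. The share called was 16.7%, beside 16.0% of all tested probe sets. Of the 6 in this group, Ppbp included, 0 were higher (limma; 1 at an unadjusted p under 0.05) and 1 was lower, and the other 5 (Cxcl1, Cxcl2, Cxcl3, Cxcl5 and Cxcl15) lay at log2 fold changes of −0.13 to 0.26. Cxcl1 (KC) had the lowest adjusted p of these, 0.0810, with 6.21, 6.17 and 6.41 in rGDF11 BMMs and 5.94, 6.09 and 5.99 in vehicle BMMs, which did not overlap.

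Cxcl14, a conserved CXC chemokine made by epithelial and stromal cells and by some myeloid cells, had the largest rise. Its log2 values were 9.31, 9.48 and 9.23 in rGDF11 BMMs and 6.95, 7.08 and 7.17 in vehicle BMMs. The lowest rGDF11 array lay 2.06 log2 units above the highest vehicle array, and Cxcl14 was 4.85-fold higher (log2 fold change 2.28, SE 0.09, limma adjusted p = 8.15e-06). Of 8 stromal markers 3 were higher (Col1a1, Col1a2 and Pdgfrb) and 0 lower, with a summed linear level of 594 to 698 in rGDF11 BMMs and 438 to 509 in vehicle BMMs. Their part in the rise of Cxcl14 was not tested. The promoter of Cxcl14 (chr13:56296552-56296801, minus strand) held 1 match, to the interferon core, 172 bases before the start, which is capitalised.
Cxcl14: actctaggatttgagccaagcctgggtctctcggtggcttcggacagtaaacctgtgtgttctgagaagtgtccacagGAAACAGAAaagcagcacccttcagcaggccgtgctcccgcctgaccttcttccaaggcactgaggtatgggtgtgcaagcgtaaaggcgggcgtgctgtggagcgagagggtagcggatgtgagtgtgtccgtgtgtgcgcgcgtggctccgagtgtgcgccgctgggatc

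Both membrane-anchored ligands rose. Cxcl16, which binds CXCR6 and also acts as a scavenger receptor for oxidised lipoprotein, averaged 10.60 ± 0.02 in rGDF11 BMMs and 10.07 ± 0.07 in vehicle BMMs (SD, n = 3 arrays each), a 1.45-fold rise (limma adjusted p = 9.86e-04). Cx3cl1 (fractalkine), the ligand of CX3CR1, averaged 6.19 ± 0.01 in rGDF11 BMMs and 5.71 ± 0.06 in vehicle BMMs (SD, n = 3 arrays each), a 1.40-fold rise (limma adjusted p = 0.00132). Ccl22 (MDC), a ligand of CCR4 made by dendritic cells and macrophages, averaged 6.34 ± 0.18 in rGDF11 BMMs and 5.76 ± 0.18 in vehicle BMMs and rose as well (log2 fold change 0.58, limma adjusted p = 0.0146). The call for Ccl22 was lost without vehicle replicate 3 (adjusted p = 0.0592) and with the methods' t-test (0.0958), within a range of 0.00312 to 0.0958 over all alternatives. Of 6 dendritic cell markers 1 was higher (Flt3, log2 fold change 0.25) and 0 lower, with a summed linear level of 219 to 260 in rGDF11 BMMs and 196 to 206 in vehicle BMMs. Their part in the rise of Ccl22 was not tested.

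Ccl22 was the 1 call among the 6 dual or homeostatic CC ligands, which guide lymphocytes and dendritic cells through tissues at rest. That is 16.7% of them, beside 16.0% of all tested probe sets. Ccl25, a gut and thymus chemokine, was the remaining ligand above the median level that did not pass. It averaged 7.06 ± 0.10 in rGDF11 BMMs and 6.85 ± 0.10 in vehicle BMMs (SD, n = 3 arrays each; log2 fold change 0.21, limma adjusted p = 0.139), while its dimmer probe set went the other way (log2 fold change −0.19, limma adjusted p = 0.294). Ccl19 had 5 probe sets to near-identical gene copies, a pair of which gave the same values on all 6 arrays, and log2 fold changes of −0.03 to −0.01. The 20 ligands at or below the median level that did not pass, Cxcl9, Cxcl11, Cxcl1 and Cxcl12 among them, spanned log2 fold changes of −0.23 (Cxcl9) to 0.41 (Ccl17), their 95% intervals spanned −0.52 to 0.70, and their lowest adjusted p was 0.0573 (limma, Ccl17). In 4 of these 20 the groups did not overlap, beside 32.9% of all tested probe sets. The latter share includes bright and called probe sets, which were left out of these 20, so it is not a like background.

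**Figure D2:**
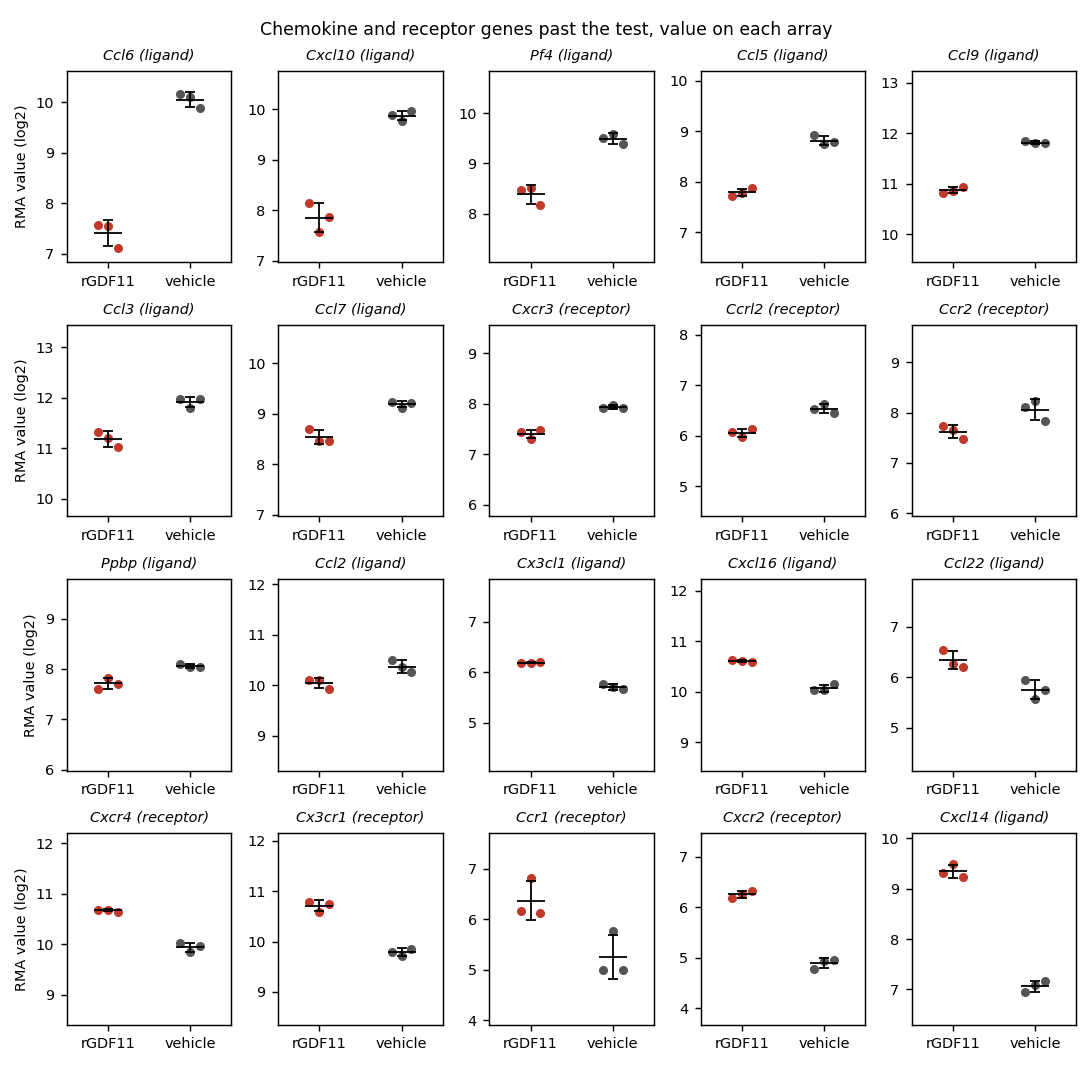
RMA values (log2, vertical axes, all of the same span) of the 20 genes with an adjusted p under 0.05, in rGDF11 BMMs (red, left) and vehicle BMMs (grey, right). Each point is 1 array, with the mean and SD of the 3 drawn in black. The arrays of Ccr1 spread the most. In no panel do the groups overlap, which adds little, since the genes were chosen by the test on these same arrays.

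Among the receptors the rises were in Cxcr2, Ccr1, Cx3cr1 and Cxcr4. Cxcr2 and Ccr1 are dim, with mean levels of 5.57 and 5.81 over all arrays, below the median level of the tested probe sets. Cxcr2, the receptor through which neutrophils follow ELR-type CXC chemokines, had log2 values of 6.18, 6.26 and 6.32 in rGDF11 BMMs and 4.77, 4.94 and 4.96 in vehicle BMMs. The nearest arrays of the groups were 1.22 apart, and Cxcr2 was 2.58-fold higher (log2 fold change 1.37, SE 0.08, limma adjusted p = 3.12e-05). Cxcr1, its neighbour and relative, did not pass (log2 fold change 0.26, limma adjusted p = 0.118), with 5.49, 5.53 and 5.70 in rGDF11 BMMs and 5.45, 5.14 and 5.33 in vehicle BMMs. Of 10 neutrophil markers 2 were higher (S100a8, log2 fold change 0.71, and Ngp, which averaged 9.28 in rGDF11 BMMs and 8.28 in vehicle BMMs), 1 was lower (Mmp8, −0.68) and 7 did not pass, among them Ly6g (−0.22) and Mpo (−0.10). Their summed linear level was 1175 to 1370 in rGDF11 BMMs and 819 to 927 in vehicle BMMs, and Ngp, the brightest of them, made most of this difference. The part of these markers in the rise of Cxcr2 was not tested. The promoter of Cxcr2 (chr1:74153744-74153993, plus strand) held NF-kB matches 157 and 26 bases before the start, shown in capitals.
Cxcr2: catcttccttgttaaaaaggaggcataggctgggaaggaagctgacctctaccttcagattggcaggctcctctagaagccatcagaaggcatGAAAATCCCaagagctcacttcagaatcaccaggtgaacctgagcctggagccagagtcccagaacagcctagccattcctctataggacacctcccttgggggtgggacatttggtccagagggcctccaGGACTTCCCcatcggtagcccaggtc

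Ccr1, a receptor for CCL3, CCL5, CCL6 and CCL9 on monocytes and osteoclast precursors, was 2.17-fold higher (log2 fold change 1.12, SE 0.25, limma adjusted p = 0.0205). Its values were 6.16, 6.82 and 6.13 in rGDF11 BMMs and 5.0, 5.76 and 5.0 in vehicle BMMs. The second array of each group stood above the other two of its group, and the groups did not overlap. The call was lost without vehicle replicate 1 (adjusted p = 0.0660, log2 fold change 0.99), without vehicle replicate 3 (0.0879, log2 fold change 0.99), with all rows of the table tested (0.0587) and with the methods' t-test (0.137). Over all alternatives the adjusted p was 4.23e-04 to 0.137, and the lowest came from limma with the replicate number as a block.

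Cx3cr1, the fractalkine receptor of monocytes and of osteoclast precursors, had 10.79, 10.59 and 10.75 in rGDF11 BMMs and 9.80, 9.71 and 9.86 in vehicle BMMs. It was 1.89-fold higher without overlap (log2 fold change 0.92, SE 0.08, limma adjusted p = 1.78e-04). Cxcr4, which holds haematopoietic cells in the marrow through CXCL12, had 10.69, 10.68 and 10.65 in rGDF11 BMMs and 10.02, 9.85 and 9.96 in vehicle BMMs. The rGDF11 arrays lay close together and above every vehicle array, a 1.66-fold rise (log2 fold change 0.73, SE 0.07, limma adjusted p = 2.79e-04). Cxcl12 itself did not pass (log2 fold change 0.21, limma adjusted p = 0.179).

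The receptors that fell were Cxcr3, Ccrl2 and Ccr2, each by less than 1.5-fold. Cxcr3, the receptor of CXCL9, CXCL10 and CXCL11 on activated T cells and some myeloid cells, had 7.43, 7.30 and 7.47 in rGDF11 BMMs and 7.91, 7.98 and 7.91 in vehicle BMMs, a 1.44-fold fall without overlap (limma adjusted p = 0.00157). Of 6 measured T cell markers 2 were lower (Cd28, log2 fold change −2.23, and Cd4, −0.25), 0 were higher, and Cd3e, Cd3d and Cd3g lay at 0.14, 0.01 and −0.02. The summed linear level of these 6 was 359 to 377 in rGDF11 BMMs and 1057 to 1129 in vehicle BMMs. Cd28, the only one above the median level, made most of this difference. It averaged 7.62 in rGDF11 BMMs and 9.85 in vehicle BMMs (log2), so the sum does not describe the other T cell markers. The part of these markers in the falls of Cxcr3 and Ccl5 was not tested. Of 6 NK cell markers 0 were higher and 0 lower (limma; 0 and 1 at an unadjusted p under 0.05), at a summed linear level of 126 to 129 in rGDF11 BMMs and 118 to 124 in vehicle BMMs. Ccrl2, an atypical receptor that binds chemerin, averaged 6.06 ± 0.07 in rGDF11 BMMs and 6.54 ± 0.08 in vehicle BMMs (SD, n = 3 arrays each), a 1.39-fold fall (limma adjusted p = 0.00338), and the other 4 atypical receptors did not pass.

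Ccr2, the receptor by which monocytes leave the marrow and enter tissue, had 7.73, 7.65 and 7.48 in rGDF11 BMMs and 8.11, 8.23 and 7.83 in vehicle BMMs. The groups were only 0.10 apart, a 1.35-fold fall (limma adjusted p = 0.0383). The call was lost without rGDF11 replicate 1, 2 or 3 (adjusted p = 0.0591, 0.0734 and 0.121), without vehicle replicate 1 or 2 (0.103 and 0.109), with all rows of the table tested (0.0874) and with the methods' t-test (0.151), at log2 fold changes of −0.55 to −0.35 over all alternatives. The macrophage markers that were lower beside these falls were Fcgr1 (log2 fold change −1.41), Cd14 (−1.06), Adgre1 (−0.51), Cd68 (−0.28) and Itgam (−0.24). The summed linear level of the 10 macrophage markers was 31522 to 32943 in rGDF11 BMMs and 37307 to 37783 in vehicle BMMs, and their part in the falls of the ligands and receptors was not tested.

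The other 15 receptors spanned log2 fold changes of −0.18 (Ackr2) to 0.48 (Ccr7), with 95% intervals from −0.52 to 0.89 and a lowest adjusted p of 0.0933 (limma, Cxcr6). All 15 lay at or below the median level, and in 3 of them the groups did not overlap, beside 32.9% of all tested probe sets. That background also holds bright and called probe sets, which were left out of these 15, so the shares are not alike. Cxcr6, the receptor of CXCL16, had 4.67, 4.87 and 4.83 in rGDF11 BMMs and 4.64, 4.26 and 4.52 in vehicle BMMs. Ccr4, the receptor of CCL22 and CCL17, had 4.13, 3.85 and 4.21 in rGDF11 BMMs and 3.99, 3.99 and 3.96 in vehicle BMMs. The groups of Cxcr6 were only 0.03 apart and it did not pass, and Ccr4 overlapped (limma adjusted p = 0.653). Ccr7, which guides dendritic cells to lymph nodes, overlapped as well, with 5.78, 5.28 and 5.77 in rGDF11 BMMs and 5.41, 4.86 and 5.12 in vehicle BMMs (limma adjusted p = 0.117).

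Ligands and receptors that are known to bind each other were set side by side in 32 pairs. Both partners passed in 9 of them, in the same direction in 4 and in opposite directions in 5, and 1 or both did not pass in 23. The pairs share members, so their counts are not independent. Cx3cr1 and Cx3cl1 both rose, at log2 fold changes of 0.92 and 0.48. Cxcr3 and Cxcl10 both fell, at −0.53 and −2.02, and so did Ccr2 with Ccl2 and Ccl7, at −0.44, −0.33 and −0.65. Ccr1 rose by 1.12 while its ligands Ccl6, Ccl5, Ccl9 and Ccl3 fell, at −2.65, −1.03, −0.95 and −0.73, and Cxcr2 rose by 1.37 while Ppbp fell, at −0.34. The same arrays gave both values of every pair.

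**Figure D3:**
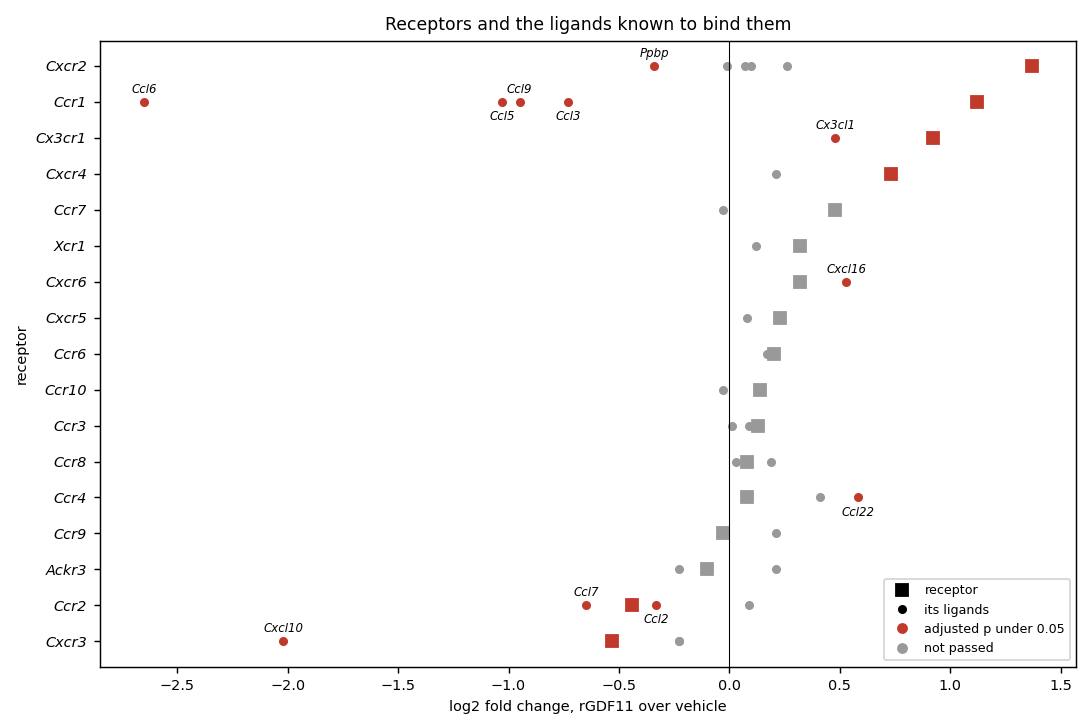
Log2 fold change (rGDF11 over vehicle BMMs, horizontal axis) of 17 receptors (squares) and the ligands known to bind them (circles, 32 pairs). Red marks an adjusted p under 0.05 and grey the rest, and called ligands are named. Ccr1 lies at 1.12 with the 4 ligands set beside it all below −0.7.

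Many of these genes lie in clusters, and neighbours did not always move alike. On chromosome 11 the order Ccl5, Ccl9, Ccl6, Ccl3 and Ccl4 held 4 falls followed by Ccl4, which did not pass. The second CC cluster on that chromosome, Ccl2, Ccl7, Ccl11, Ccl12, Ccl8 and Ccl1, held falls at Ccl2 and Ccl7 only, and the other 4 lay between 0.01 and 0.19. On chromosome 5, Ppbp and Pf4 fell between Cxcl5 on one side and Cxcl3, Cxcl15, Cxcl1 and Cxcl2 on the other, which did not pass. On chromosome 8, Ccl22 and Cx3cl1 rose beside Ccl17 (log2 fold change 0.41), which did not. On chromosome 9, Ccr1 rose, Ccr3 did not pass and Ccr2 fell.

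**Figure D4:**
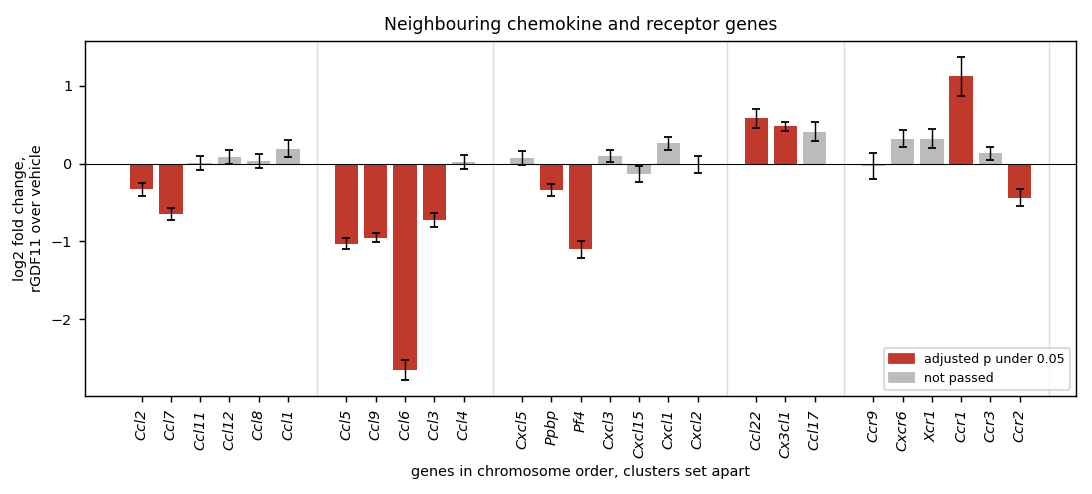
Log2 fold change (rGDF11 over vehicle BMMs, vertical axis; bars from 0, error bars SE from limma) of genes in 5 clusters of at least 3 members, in chromosome order from left to right without distances. Red marks an adjusted p under 0.05. Ccl6 stands lowest within a run of 4 falls that ends at Ccl4.

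Genes that carry the signal of chemokine receptors, that dampen it, or that code for proteases acting on chemokines were read from 3 further lists. Of 28 measured genes for G proteins and effectors, 2 were higher and 7 lower, with a median log2 fold change of −0.05. All 28 lay above the median level, and the 9 called were 32.1% of them, beside 27.2% of all tested probe sets above that level. The largest changes were in the kinase gene Src (1.07, limma adjusted p = 1.79e-04), the G protein subunit gene Gng2 (−0.56, adjusted p = 0.00314) and Rac2, a GTPase of blood cells that drives cell movement (−0.50, adjusted p = 9.00e-04). Of 12 measured genes for G protein-coupled receptor kinases, arrestins and RGS proteins, which end or dampen the signal, 3 were higher and 3 lower, 50% of a list that lay wholly above the median level (background 27.2%). Rgs16 (1.82, limma adjusted p = 2.26e-05) and Rgs3 (0.69, adjusted p = 0.00160) rose and Rgs18 (−0.87, adjusted p = 2.50e-04) fell. Of 10 proteases that trim or shed chemokines 3 were higher and 3 lower, and 4 of the 7 above the median level were called (57.1%, background 27.2%), with rises of the membrane protease gene Mmp14 (1.57, limma adjusted p = 9.91e-05) and of Mmp2 (0.97, adjusted p = 3.24e-04), and a fall of the macrophage elastase gene Mmp12 (−1.15, adjusted p = 5.10e-05).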

How the data were processed

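Total RNA of 6 BMM samples, 3 with rGDF11 and 3 with vehicle, was labelled with biotin and read on Affymetrix Mouse Gene 1.0 ST arrays. The authors normalized the arrays by the robust multichip average and deposited log2 values per probe set, naming Transcriptome Analysis Console 3.0 and Expression Console, whose version the sources used here do not give. RMA compresses large differences, and no depth exists for arrays, so the number of arrays limits the precision.

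Of 35556 probe sets, 21789 had 1 symbol, 1621 several and 12146 none, and the 23410 with a symbol were tested. Entrez identifiers were found for 21698 single-symbol probe sets in a GRCm38.p6 gene table, which changed 0 symbols. Rows left out by the rule were 4 with Ccl21 symbols, 3 with Ccl27 symbols and Ccr1l1, and a gene without a probe set of its own was not analysed here.

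The model was fitted in limma 3.58.1 (R 4.3.3) by lmFit and eBayes, with no trend and no covariate, on all 6 arrays and tested two-sided, with Benjamini-Hochberg adjustment over the 23410 probe sets. An exact permutation test over 3 arrays against 3 cannot go below 0.1. The fit was tested on simulated data. Figures were drawn in matplotlib 3.10.9. Named are all members called, those not called above the median level, up to 3 called genes per list of signalling or protease genes, and others after their values were seen. Arrays are given for the 5 largest changes in each direction and for receptors of called ligands, beside a few chosen for contrast. The members and lists were chosen with earlier results of these data known. Marker lists without a value in the report were mast cells and basophils (0 higher and 1 lower of 6), B cells (0 and 1 of 5), endothelium (1 and 1 of 6) and erythroid cells (1 and 0 of 3). Of all tested probe sets 7.31% were higher and 8.64% lower. Alternatives covered 2 normalizations, dim rows, rows tested, a trended variance, the methods' t-test, each array left out, the replicate block, the threshold and the probe set per gene. The methods' t-test at the methods' threshold was added after seeing the data.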

Additional observations from a re-analysis of the deposited data

How the results depend on the processing

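Of the 20 called genes, 15 passed at an adjusted p under 0.05 under every alternative that kept this threshold and tested them, and Ccl2, Ccr2, Ppbp, Ccl22 and Ccr1 lost the call under at least 1. At the methods' threshold, limma gave 5 higher and 7 lower genes and the methods' t-test, added after seeing the data, 4 and 7. Ligands called higher were then 1 in both fits, and receptors called lower were 0 in both, while at an adjusted p under 0.05 limma called 3 and at an unadjusted p under 0.05 also 3. All tested probe sets called were then 1177 with limma and 1095 with the methods' t-test, against 3735. With rows above the median level only, 4 genes were higher, 2 ligands and 2 receptors, because Cxcr2, Ccr1, Cx3cl1 and Ccl22 did not enter. The medians became −0.50 for ligands and −0.44 for receptors. Leaving out 1 array gave 6 to 11 higher and 9 to 11 lower genes, 3 to 5 ligands higher, 7 to 8 ligands lower, 3 to 7 receptors higher (7 without rGDF11 replicate 2), 2 to 3 receptors lower, and 2585 to 3082 probe sets called. Leaving out 1 array moved the median of the ligands between −0.01 (without rGDF11 replicate 1) and 0.08 (without vehicle replicate 1) and that of the receptors between 0.17 and 0.19. Ccl4, which did not pass, turned to −0.0043 without rGDF11 replicate 1 and −0.07 without vehicle replicate 2, within −0.07 to 0.09 over the arrays left out. The cause of these changes was not tested otherwise. The replicate number as a block gave 9 higher and 12 lower genes and 3619 probe sets called, and kept the call of all 23 genes it was read for. Samples of the same number deviated together with r = 0.064, 0.335 and −0.001, thus little for replicates 1 and 3 and more for replicate 2. The reason for replicate 2 was not tested. The main fit took the numbers as unpaired, and the block was an alternative only. With 3 arrays per group and no detection calls, small changes of dim probe sets could not be resolved.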
